A study of Mus musculus with 8 samples.

Results

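The adipocyte and lipogenesis genes are 36 genes that fat cells use to become fat cells, to take up, make, store and release triglyceride, to signal to other tissues and to make heat. They were chosen by name, with no threshold on a measured value, and each gene's value comes from its brightest probe set, by the mean over 8 arrays, leaving out probe sets annotated to several genes. Of the 36, 33 were measured among 18193 genes, and Plin1, Cfd and Acsl1 had no probe set of their own in the annotation used. The arrays were Affymetrix mouse whole-genome arrays, hybridised with RNA from dorsal skin of B6D2/F1 mouse embryos at embryonic day 18.5. Both groups were littermates delivered by caesarean: 4 arrays (label numbers 4, 6, 28 and 29) were GR+/+, here wild-type, and 4 (5, 17, 25 and 26) were GR-/-, here GR-null, carrying the knockout of the glucocorticoid receptor. Array values are listed below in the order 4, 6, 28, 29 for wild-type and 5, 17, 25, 26 for GR-null. The sources used here do not give the targeted part of the gene, the litter of each embryo or whether each array came from an embryo of its own, so p-values measure the spread between these samples, which may be technical.

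White adipocytes form in the deep dermis and below it late in fetal life, under the transcription factors PPARγ and C/EBPα, and fill with triglyceride held in droplets coated by perilipins and CIDE proteins. Brown adipocytes, which lie between the shoulder blades, share most of these genes and add the uncoupling protein UCP1, which turns fuel into heat. Glucocorticoids are a standard part of the mixtures that start adipocyte differentiation in culture. Several members are not particular to fat cells: keratinocytes and sebaceous glands make fatty acids, muscle uses Car3, Slc2a4 and Ppargc1a, and capillaries and macrophages carry Cd36 and Fabp4.

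At the 3 brightest of the 6 Nr3c1 probe sets (the receptor gene) every GR-null array lay below every wild-type array, with differences of -0.84, -1.86 and -2.70 log2, and at the other 3 the groups overlapped. Marker lists showed skin on all arrays: the mean of 12 keratinocyte markers was 12.15 to 12.58 log2 and that of 10 dermal fibroblast markers 12.33 to 12.72. The mean of 31 skeletal muscle markers was 10.71 to 10.87 in wild-type and 9.86 to 10.83 in GR-null arrays, with GR-null 17 the highest of its group, and 5 of the 31 fell, with the sarcomere genes Mybpc1, Actn2 and Tnnt1 and the calcium store gene Casq2 at -0.92, -0.75, -0.67 and -0.90 log2. Among keratinocyte markers Trp63 and Col17a1, which basal cells express, rose by 0.60 and 0.59. The cornified envelope gene Lor fell by 0.48 (limma adjusted p of these genes from 0.0372 to 0.0408). Other basal markers did not pass and went both ways, with Krt5 at -0.14, Krt14 at -0.20, Krt15 at 0.21 and Itga6 at 0.18. Of the 12 keratinocyte markers 7 had negative differences. No sebaceous gland, fibroblast, capillary or macrophage marker passed, and the smallest p in each list belonged to Far2 (2.48 ± 0.78, limma adjusted p = 0.113), Col1a1 (-0.30), Tek (-0.69) and Itgam (0.38). Over all genes 539 of 18193 (2.96%) differed at an adjusted p below 0.05 by limma. None of the 33 measured members was among them. At an unadjusted p below 0.05, limma gave 1 member higher, against 10.5% of all genes, and 5 lower, against 11.1%. No member had all GR-null values above all wild-type values, against 6.69% of all genes, and 4 had them all below, against 6.30%. The median log2 difference (GR-null minus wild-type) over the 33 was -0.20, beside a median of 0.00 over all genes (-0.0045), and 26 of the 33 were negative, as were 9324 of all genes.

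What set many of these genes apart from most was their spread between arrays of the same genotype. Plin2, Aqp7, Fasn, Acly, Pck2, Elovl2 and Me1 instead had an SD below the median of all genes. Adipoq encodes adiponectin, a hormone made almost only by adipocytes. Its log2 levels were 11.40, 5.66, 4.62 and 10.56 on the wild-type arrays, and 9.08, 11.72, 6.85 and 4.36 on the GR-null arrays. Each genotype thus held arrays with much Adipoq signal and arrays with little, and the lowest and highest of the 8 were 164-fold apart. Its within-genotype SD, 3.28 log2, ranked 3 among the 18193 genes, beside a median SD of 0.149 over all genes and 0.315 over the members. The genotype difference was -0.06 ± 1.88 log2 (SE, n = 4 per group, limma adjusted p = 0.993), with a 95% interval from -4.31 to 4.20, so a difference of many fold in either direction was not detectable with these arrays. When 1 setting or array was changed at a time the estimate ran from -1.30 to 2.63 and had the other sign in 5 of 16 fits. In whole skin, fewer adipocytes and less RNA per adipocyte cannot be told apart.

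**Figure D1:**
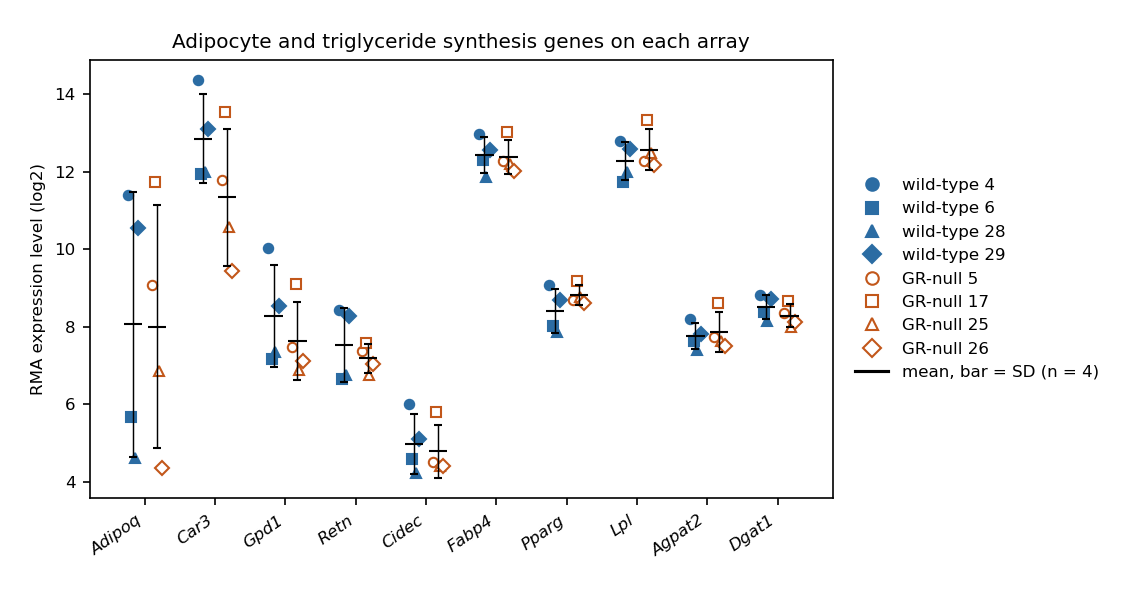
Log2 RMA level of 10 members on each of the 8 arrays, with filled blue symbols for wild-type and open orange symbols for GR-null, the mean as a line and the SD as a bar (n = 4 per group). Adipoq spans 4.36 to 11.72, and wild-type 4 and GR-null 17 are the highest of their genotype for most genes shown.

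Other adipocyte genes rose and dipped on the same arrays. After each genotype's mean was taken off, 27 of 32 members had a positive Pearson r with Adipoq over the 8 arrays, and 18 of 32 (56.3%) had an r over 0.7, against 8.64% of all genes. The median r with Adipoq was 0.75 over members and -0.05 over all genes. Over the 528 pairs of members the median r was 0.45 and 30.3% of pairs exceeded 0.7, against a median of 0.02 and 5.93% over all pairs of genes. These points share arrays, dissection and normalization, and the pair values are given as a description. The relation with Adipoq was also tested by permuting arrays within each genotype in every possible way (exact, two-sided, adjusted over the 32 members), and 9 members passed for r and 3 for Spearman's rho.

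The 3 that passed both were Cidec, Fabp4 and Agpat2. Cidec, which fuses small lipid droplets into large ones, had r = 0.88 and rho = 0.93 (exact permutation p of r = 0.00174, the smallest the design allows, adjusted p = 0.0185 for r and 0.037 for rho). Fabp4, the fatty acid carrier of the adipocyte cytosol, had r = 0.91 and rho = 0.95, with the same adjusted exact p values. Agpat2, which adds the second fatty acid in triglyceride synthesis, had r = 0.87 and rho = 0.90, again with those adjusted exact p values. Without the 2 arrays farthest from the median of Adipoq the r values were 0.87, 0.88 and 0.85. Car3, Dgat1, Zfp423, Pparg, Gpd1 and Acaca passed for r alone, with r from 0.82 to 0.94 and an exact permutation adjusted p of 0.0494 each. Their r values lay between 0.73 and 0.95 without those 2 arrays. Lpl, Retn, Lep, Mgll, Prdm16, Pnpla2, Cd36, Plin4 and Dio2 had r from 0.75 to 0.88 and did not pass (exact permutation adjusted p from 0.0667 to 0.111).

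**Figure D2:**
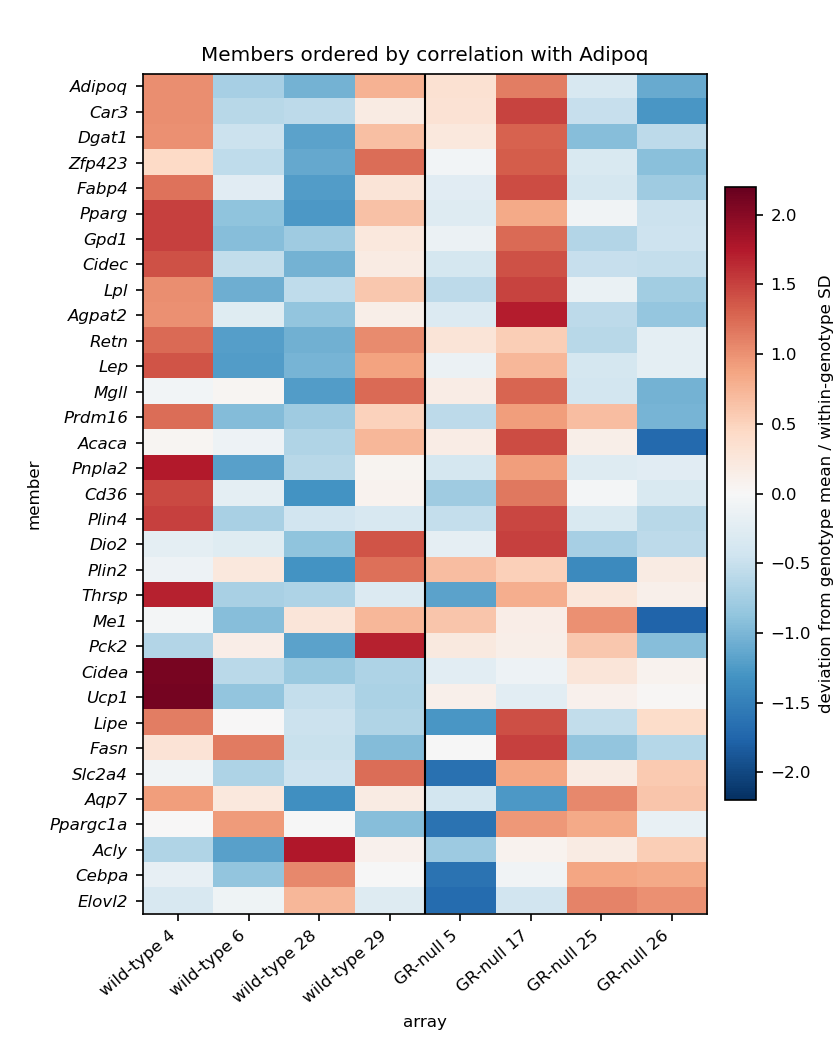
Each measured member on each array as the deviation from its genotype mean divided by its within-genotype SD, with rows ordered by Pearson r with Adipoq and wild-type arrays left of the black line. The upper rows are red in wild-type 4 and GR-null 17 and mostly blue in wild-type 6 and 28 and GR-null 25 and 26, and the lowest rows do not follow this order.

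Of the 6 fatty acid synthesis genes, Acaca alone had an r over 0.7. At the brightest probe sets, the only ones correlated, r with Adipoq was 0.33 for Fasn, 0.48 for Me1, -0.40 for Acly and -0.42 for Cebpa. It was -0.63 for Elovl2, -0.05 for Aqp7, -0.16 for Ppargc1a and 0.26 for Slc2a4. Lipe, Ucp1, Cidea, Pck2, Thrsp and Plin2 lay between 0.34 and 0.52, and the exact permutation adjusted p of these members ran from 0.170 to 0.901. The muscle marker mean was a second measure, and it varied mostly among the GR-null arrays (SD 0.42, against 0.07 in wild-type). The mean of the 31 muscle markers had r = 0.46 and rho = 0.45 with Adipoq (exact permutation p = 0.319 and 0.323). This r was -0.06 without the 2 arrays farthest from the median of Adipoq. It was 0.53 without the 2 farthest from the median of the muscle mean, so it depended on the arrays left out. Against the muscle mean, 30 of 33 members had a positive r, with a median of 0.49, and 0 passed the exact permutation test (adjusted p from 0.422 to 0.955). The matching shares over all genes were not computed. An r over 0.7 with the muscle mean was found for 3 of 33 members (Agpat2, Dio2 and Lpl). Without the 2 arrays farthest from the median of the muscle mean, the r values of these 3 were 0.34, 0.76 and 0.40. The part that muscle content plays in the members' values was not tested beyond these values and a fit with the muscle mean as a covariate.

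**Figure D3:**
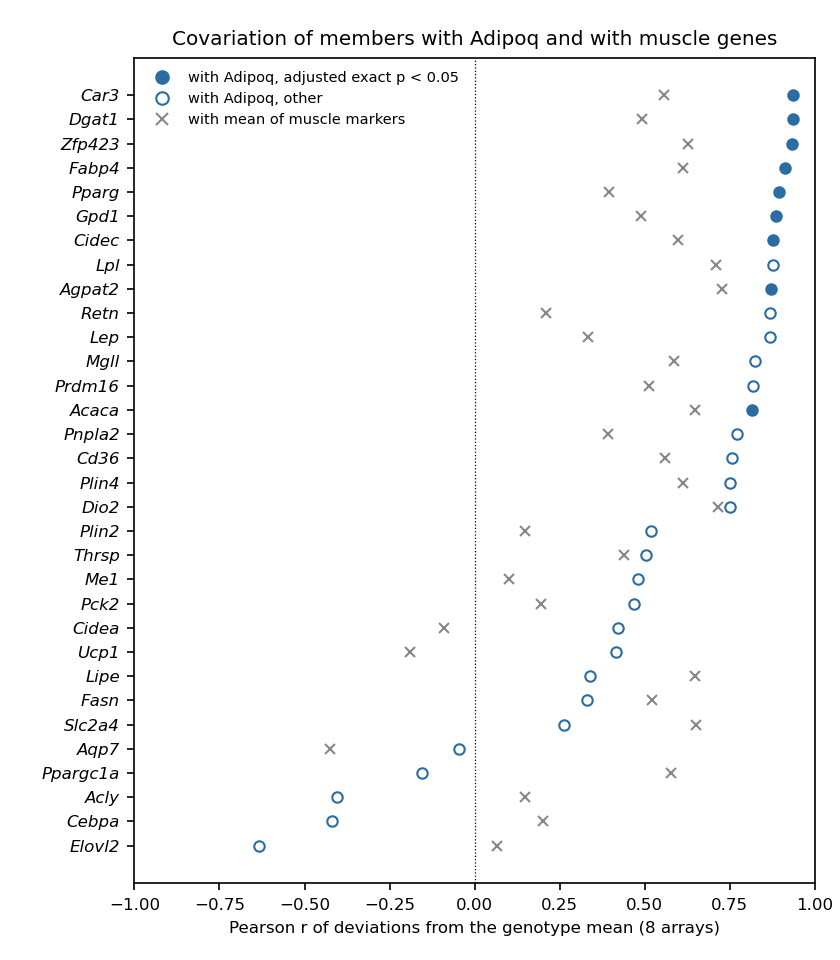
Pearson r over 8 arrays of each member's deviations from its genotype mean with those of Adipoq (circles, filled where the adjusted exact p was below 0.05) and with those of the mean of 31 muscle markers (crosses). The 9 filled circles lie between 0.82 and 0.94, and the crosses lie between -0.42 and 0.73.

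Promoter sequence is shown for 4 members of different roles: the fat cell hormone gene Adipoq, the droplet gene Cidec, the regulator Pparg and the lipase gene Lipe. Each is the 250 bases before a RefSeq start in GRCm38.p6, 5′ to 3′ on the gene's strand, at chr16:23146286-23146535 (+), chr6:113434765-113435014 (-), chr6:115421816-115422065 (+) and chr7:25390113-25390362 (-). Cidec and Lipe have 2 RefSeq starts each and Pparg 3. For Cidec and Lipe the window shown is the one with a match, and the 2 Pparg windows not shown each hold AGGTCA. Capitals mark matches on either strand to AGGTCA, the half-site of nuclear receptors such as PPARγ, to TTGCNNAA, a core of C/EBP sites, and to ACANNNTGT, the core of a glucocorticoid response element.
Adipoq: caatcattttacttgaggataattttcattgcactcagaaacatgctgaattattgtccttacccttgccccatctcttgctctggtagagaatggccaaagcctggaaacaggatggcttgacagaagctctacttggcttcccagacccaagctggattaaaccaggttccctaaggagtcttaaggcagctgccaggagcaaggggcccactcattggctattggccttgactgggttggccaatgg
Cidec: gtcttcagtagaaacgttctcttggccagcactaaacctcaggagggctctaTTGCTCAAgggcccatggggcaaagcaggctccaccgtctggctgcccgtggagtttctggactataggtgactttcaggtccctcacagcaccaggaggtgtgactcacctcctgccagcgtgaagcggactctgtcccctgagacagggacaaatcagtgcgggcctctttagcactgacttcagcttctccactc
Pparg: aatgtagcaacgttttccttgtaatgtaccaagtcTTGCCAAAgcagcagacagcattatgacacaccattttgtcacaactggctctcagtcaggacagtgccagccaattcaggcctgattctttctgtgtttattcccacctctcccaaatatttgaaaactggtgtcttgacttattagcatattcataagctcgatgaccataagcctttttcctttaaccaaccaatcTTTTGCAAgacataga
Lipe: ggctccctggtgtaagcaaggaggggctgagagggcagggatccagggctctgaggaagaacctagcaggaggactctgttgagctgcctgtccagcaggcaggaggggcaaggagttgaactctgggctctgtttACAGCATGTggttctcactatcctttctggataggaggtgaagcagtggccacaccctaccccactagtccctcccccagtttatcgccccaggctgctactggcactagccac
The Adipoq window held none of the 3 motifs. The Cidec window held 1 match to TTGCNNAA, the Pparg window 2, and the Lipe window 1 match to ACANNNTGT. Promoters were found for 26 measured members, with 35 starts whose windows can overlap within a gene. AGGTCA was in 9 of these 35 windows (25.7%), against 14.0% of 32851 promoter windows of the same length, TTGCNNAA in 5 (14.3%), against 9.56%, and ACANNNTGT in 1 (2.86%), against 5.84%. No 2 matches in the printed windows overlapped. A match describes letters in these windows and not binding.

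Among the regulators, Pparg read 9.07, 8.03, 7.86 and 8.69 on the wild-type arrays and 8.69, 9.17, 8.78 and 8.60 on the GR-null arrays. The highest wild-type array lay near the highest GR-null array, and the groups overlapped, with a difference of 0.40 ± 0.26 (SE, limma adjusted p = 0.426). Cebpa, which keeps Pparg on in mature adipocytes and is also used by keratinocytes, read 10.46, 10.32, 10.70 and 10.49, then 10.57, 10.87, 11.06 and 11.05 in the same order. It was the 1 member higher at an unadjusted p below 0.05, and its difference was 0.39 ± 0.13 (limma adjusted p = 0.124). Zfp423, a zinc finger protein of preadipocytes, read 7.35, 7.07, 6.91 and 7.57, then 6.89, 7.28, 6.81 and 6.64, a difference of -0.32 ± 0.17 (limma adjusted p = 0.33).

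Of the droplet proteins, Plin4, a perilipin of small nascent droplets, read 7.93, 6.68, 6.84 and 6.88 on the wild-type arrays and 5.92, 7.05, 6.03 and 5.88 on the GR-null arrays. GR-null 17 lay inside the wild-type range and the other 3 GR-null arrays below it. The difference was -0.86 ± 0.33 log2 (limma adjusted p = 0.175), and Plin4 fell by 1.14 (adjusted p = 0.0396) without GR-null 17. Cidec read 5.99, 4.58, 4.22 and 5.11, then 4.51, 5.81, 4.41 and 4.41, with 1 high array in each genotype and a difference of -0.19 ± 0.42 (limma adjusted p = 0.852). Plin2, the perilipin found in most cell types, stayed within 9.89 to 10.40 on all arrays (difference -0.12 ± 0.10, limma adjusted p = 0.58).

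The remaining secreted proteins spanned narrower ranges than Adipoq. Retn, the gene of resistin, read 8.42, 6.65, 6.76 and 8.28 on the wild-type arrays and 7.38, 7.57, 6.75 and 7.03 on the GR-null arrays. Wild-type 4 and 29 were the highest of all 8, and the difference was -0.34 ± 0.42 log2 (limma adjusted p = 0.706). Lep, the gene of leptin, read 4.79, 4.27, 4.31 and 4.69, then 4.49, 4.66, 4.44 and 4.48, dim on every array beside array medians of 6.46 to 6.52 over all probe sets. Its groups overlapped (difference 0.00 ± 0.13, limma adjusted p = 0.994).

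Genes of fuel uptake and handling showed no separation of the genotypes. Lpl, the lipase that frees fatty acids from blood lipoproteins, read 12.79, 11.73, 11.99 and 12.58 on the wild-type arrays and 12.27, 13.32, 12.49 and 12.17 on the GR-null arrays. Its difference was 0.29 ± 0.30 log2 (limma adjusted p = 0.647). Fabp4 read 12.97, 12.31, 11.86 and 12.55, then 12.26, 13.03, 12.20 and 12.02, with means of 12.42 ± 0.46 (SD, n = 4) and 12.38 ± 0.45. Cd36, a fatty acid transporter, read 10.53, 10.02, 9.69 and 10.11, then 10.26, 10.85, 10.48 and 10.40, a difference of 0.41 ± 0.18 (limma adjusted p = 0.238). The dimmer Cd36 probe sets had differences of 0.10 and -0.11. Slc2a4, the insulin-regulated glucose transporter of fat and muscle, read 7.55, 7.45, 7.49 and 7.77, then 7.07, 7.49, 7.37 and 7.44 (difference -0.22 ± 0.11, limma adjusted p = 0.302), while its other probe set, close to it in signal, had a difference of 0.36 ± 0.20. Aqp7, a glycerol channel, was between 4.17 and 4.59 on all arrays (difference 0.08 ± 0.10).

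At their brightest probe sets the lipolysis genes all had negative differences, and Lipe came closest to the threshold. Lipe, the hormone-sensitive lipase, read 8.65, 8.29, 8.13 and 8.07 on the wild-type arrays and 7.07, 7.94, 7.31 and 7.61 on the GR-null arrays. Every GR-null value lay below every wild-type value, GR-null 17 by the least, and the difference was -0.80 ± 0.19 (limma adjusted p = 0.0623). Lipe fell by 0.95 (adjusted p = 0.0154) without GR-null 17, and over its 17 other fits the adjusted p ran from 0.0154 to 0.513. Its dimmer probe set had a difference of 0.11 ± 0.10. Pnpla2, the lipase that takes off the first fatty acid, had a difference of -0.43 ± 0.30 (limma adjusted p = 0.46), with wild-type 4 at 9.12 and the other 7 arrays at 7.61 to 8.28. Mgll, which takes off the last one, had a difference of -0.25 ± 0.18 (limma adjusted p = 0.49), and its dimmer probe sets had differences of -0.40, 0.18 and -0.02.

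In triglyceride synthesis, Gpd1, which supplies the glycerol backbone, read 10.03, 7.18, 7.36 and 8.54 on the wild-type arrays and 7.48, 9.09, 6.88 and 7.11 on the GR-null arrays. These values span 8.93-fold with wild-type 4 and GR-null 17 on top, and the genotype difference was -0.64 ± 0.67 log2 (limma adjusted p = 0.652). Agpat2 ranged from 7.39 to 8.62 and Dgat1, which adds the third fatty acid, from 8.0 to 8.80, with differences of 0.11 ± 0.26 and -0.22 ± 0.18.

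Fatty acid synthesis enzymes were steady across arrays at their brightest probe sets. Fasn, the fatty acid synthase, read 10.59, 10.71, 10.47 and 10.41 on the wild-type arrays and 10.34, 10.56, 10.22 and 10.25 on the GR-null arrays (difference -0.20 ± 0.10, limma adjusted p = 0.291). Acaca (acetyl-CoA carboxylase), Acly (ATP citrate lyase) and Me1 (malic enzyme), which feed it, had differences of -0.13 ± 0.11, -0.06 ± 0.10 and -0.01 ± 0.08. A second Acly probe set, nearly as bright (mean 11.32 against 11.34 log2), had the opposite sign, with a difference of 0.37 ± 0.14 (limma adjusted p over probe sets = 0.171). Some dimmer probe sets of these 3 genes gave positive values, and they were singled out after their values were seen. At one Acaca probe set the arrays read 5.6, 5.57, 4.80 and 4.90, then 6.37, 5.72, 6.33 and 6.45, and it rose by 1.0 ± 0.23 (limma adjusted p over 45037 probe sets = 0.0487), among the 2.22% of probe sets that rose. An Acly probe set had a difference of 1.21 ± 0.31 (limma adjusted p over probe sets = 0.0638) and a Me1 probe set one of 0.71 ± 0.17 (0.0544). On all 3 GR-null 17 was the lowest GR-null array. The sources used here do not say which transcripts these probe sets read. Thrsp, a small protein that promotes fatty acid synthesis in fat and liver, read 8.97, 7.05, 7.08 and 7.38, then 5.66, 7.25, 6.81 and 6.70, with wild-type 4 high, GR-null 5 low and a difference of -1.01 ± 0.46 (limma adjusted p = 0.245). That value rests on a near tie in brightness, since a second Thrsp probe set with the same mean level of 7.11 stayed within 6.96 to 7.25 on all arrays and had a difference of 0.14 ± 0.08, and the dimmest had one of -0.43 ± 0.23. Elovl2, an elongase of polyunsaturated fatty acids, was between 3.63 and 3.94 on all arrays.

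At their brightest probe sets the 4 thermogenic genes and Cidea all had negative differences that did not pass the test. For Cidea and Ucp1 wild-type 4 was far above the other arrays. Cidea, a droplet protein of brown fat that sebaceous glands also make, read 9.20, 7.18, 7.02 and 7.12 on the wild-type arrays and 6.37, 6.46, 6.74 and 6.6 on the GR-null arrays. All GR-null values lay below all wild-type values, while the mean of 10 sebaceous gland markers was 7.86 to 8.06 in wild-type and 7.99 to 8.47 in GR-null arrays. Of those 10 markers 4 had negative differences and the median difference was 0.04, with Far2 (2.48) and Fads2b (0.80) the most positive. The part of sebaceous glands in the Cidea values was not tested. Its difference was -1.09 ± 0.43 log2 (limma adjusted p = 0.191). Without wild-type 4 the difference was smaller, at -0.56, and passed (limma adjusted p = 0.0476), the only member lower in that fit, in which 1.05% of all genes were lower. Ucp1 read 5.94, 4.95, 5.06 and 5.01, then 4.84, 4.73, 4.84 and 4.82, dim on all arrays and highest on wild-type 4 (difference -0.43 ± 0.20, limma adjusted p = 0.254), and without that array the difference was -0.20. Some genes of oxidation outside the members, chosen after their values were seen, had the same array on top. Plin5, the perilipin of oxidative tissues, read 7.63 in wild-type 4 and 5.59 to 6.17 elsewhere. The mitochondrial subunit gene Cox7a1 read 8.64 there, 7.62 in GR-null 17 and 6.32 to 7.0 elsewhere. The brown fat markers Cox8b and Elovl3 did not have wild-type 4 on top. Cox8b read 8.65 there and 8.86 in wild-type 29, and Elovl3 4.68 and 4.80.

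Prdm16, a regulator of brown fat identity, read 7.22, 6.53, 6.58 and 6.99 on the wild-type arrays and 5.87, 6.34, 6.26 and 5.73 on the GR-null arrays. The groups did not overlap, and the difference was -0.78 ± 0.19 log2 (limma adjusted p = 0.0623). Its 3 dimmer probe sets had differences of -0.02, -0.17 and -0.08, the first of them close in mean level (6.32 against 6.44). Dio2, which makes active thyroid hormone inside brown adipocytes and other cells, read 7.83, 7.81, 7.54 and 8.52, then 7.14, 7.87, 6.91 and 6.97, so GR-null 17 lay in the wild-type range (difference -0.71 ± 0.25, limma adjusted p = 0.153), and its other probe sets had differences of -0.40 and 0.31. Ppargc1a, a coactivator of mitochondrial genes in brown fat and muscle, read 5.81, 6.0, 5.80 and 5.61, then 5.38, 5.91, 5.88 and 5.68 (difference -0.10 ± 0.13, limma adjusted p = 0.743). A second Ppargc1a probe set, nearly as bright (mean 5.67 against 5.76), read 6.39, 4.90, 5.87 and 5.96, then 5.18, 6.48, 5.45 and 5.14. Wild-type 4 and GR-null 17 were the highest of their genotype on it, and its r with Adipoq was not computed. The 2 dimmest Ppargc1a probe sets had differences of -0.51 ± 0.12 and -0.67 ± 0.16 (limma adjusted p over probe sets = 0.0555 and 0.055).

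**Figure D4:**
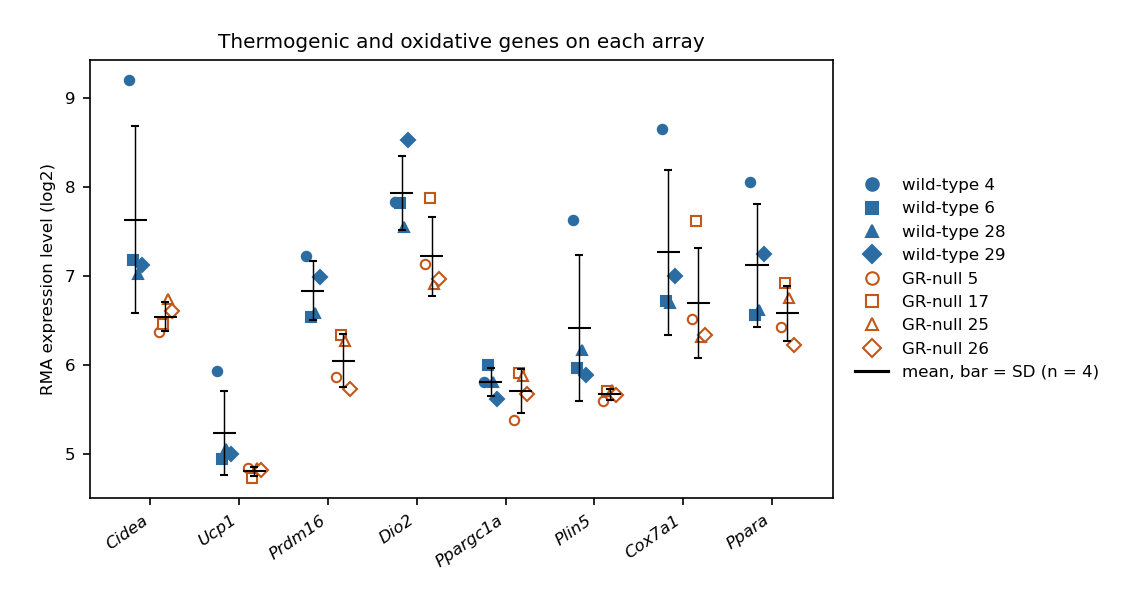
Log2 RMA level of 5 members (Cidea, Ucp1, Prdm16, Dio2, Ppargc1a) and 3 other oxidative genes (Plin5, Cox7a1, Ppara) on each array, with the mean as a line and the SD as a bar (n = 4 per group). Wild-type 4 stands above all other arrays for Cidea, Ucp1, Prdm16, Plin5, Cox7a1 and Ppara, and for Dio2 wild-type 29 is the highest at 8.52. The 3 other oxidative genes were chosen after their values were seen.

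Car3, a carbonic anhydrase abundant in adipocytes and in slow muscle, had the most negative difference of all members. It read 14.36, 11.93, 11.98 and 13.10 on the wild-type arrays and 11.79, 13.54, 10.58 and 9.43 on the GR-null arrays. The 8 arrays span 30.6-fold, the within-genotype SD was 1.48 log2 and the groups overlap. Its difference of -1.51 ± 0.85 log2 did not pass (limma adjusted p = 0.354). The dimmer Car3 probe sets had differences of -1.02, -1.56 and -1.58 (limma adjusted p over probe sets from 0.289 to 0.611). Pck2, the mitochondrial form of the enzyme that feeds glycerol synthesis, was between 8.49 and 9.02 on all arrays (difference -0.20 ± 0.09, limma adjusted p = 0.264).

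**Figure D5:**
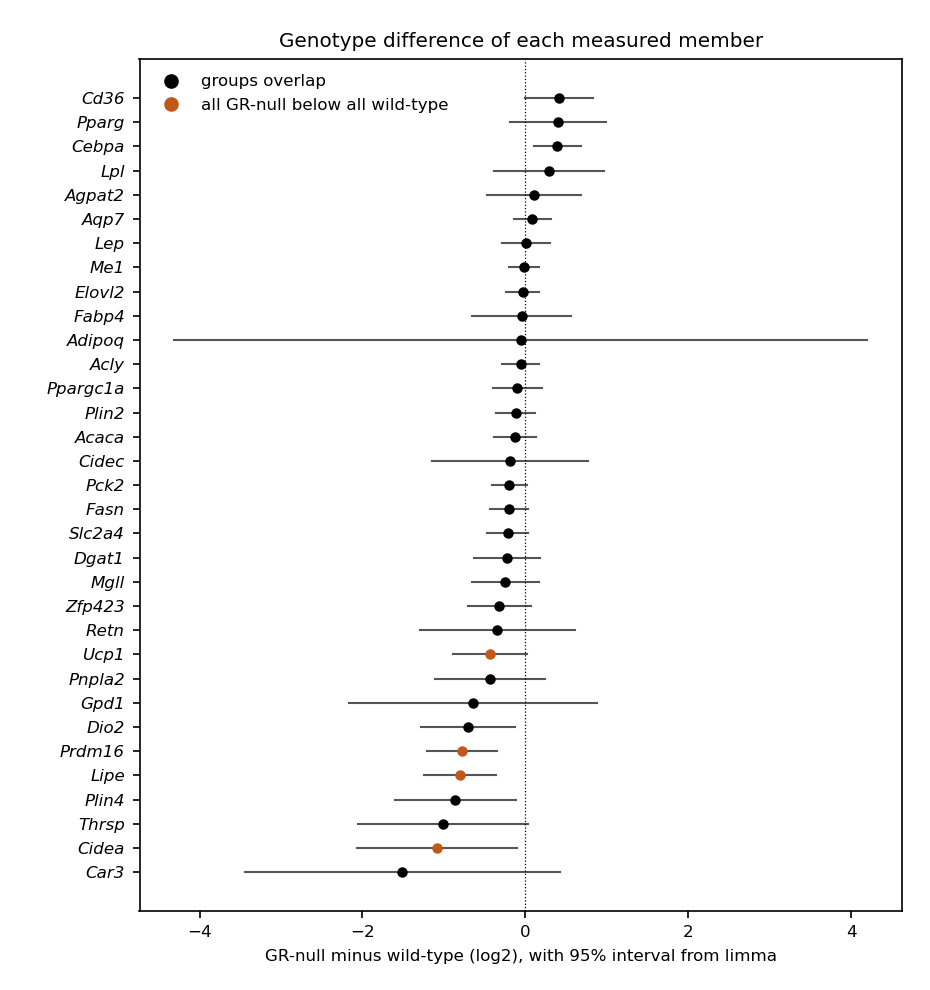
GR-null minus wild-type difference of each of the 33 measured members on the log2 scale with limma's 95% interval, in orange where all GR-null values lay below all wild-type values (Cidea, Lipe, Prdm16 and Ucp1). Most intervals include 0, and that of Adipoq runs from -4.31 to 4.20.

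Lipe, Prdm16, Dio2 and Plin4 passed the test in some other fits. The skeletal muscle mean read 10.83 in GR-null 17 and 9.86 to 10.18 in the other GR-null arrays, beside 10.71 to 10.87 in wild-type. With that mean as a covariate the differences of Lipe, Prdm16, Dio2, Plin4 and Car3 were -0.42, -0.49, -0.15, -0.24 and -0.03 (limma adjusted p from 0.483 to 0.996). The muscle mean was itself lower in GR-null skin (10.23 against 10.77), so in this fit genotype and muscle signal cannot be told apart. Without GR-null 17, the array with the highest Adipoq, Lipe, Prdm16, Dio2 and Plin4 fell (log2 differences of -0.95, -0.88, -0.92 and -1.14, limma adjusted p from 0.0154 to 0.0396), while 5.21% of all genes were lower. With array quality weights, which gave GR-null 17 the lowest weight (0.47), these 4 fell again (limma adjusted p from 0.0175 to 0.0489), while 5.84% of all genes were lower. At an adjusted p below 0.1 with all arrays, Lipe and Prdm16 were lower, and 4.40% of all genes were. A fit added after seeing the data took the Adipoq level of each array as a covariate, which compares the genotypes at equal Adipoq signal. In it Prdm16 fell by 0.78 ± 0.13 (limma adjusted p = 0.0183) and Car3 fell by 1.49 ± 0.32 (adjusted p = 0.0375), against 2.71% of all genes lower. The standard error was smaller for 28 of the 32 members other than Adipoq, and the share over all genes was not computed. Over all genes 5.32% differed in this fit, against 2.96% with genotype alone, so a gain in calls was not particular to the members.

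Lists of related genes beside the members held few changes, to be read against the 2.96% of all genes that passed. Of 29 measured adipogenic regulators, Klf5, a Krüppel-like factor that acts early in adipogenesis and in epithelia, rose by 0.83 ± 0.17 log2 (limma adjusted p = 0.0382), and Cebpd, a C/EBP factor that comes before Pparg, fell by 0.85 ± 0.19 (adjusted p = 0.047). Klf5 read 10.65, 10.64, 10.84 and 10.96, then 11.33, 11.27, 11.92 and 11.89, and each call held in 1 of the 8 fits without an array. Of 36 lipid enzymes and droplet proteins, 0 passed (before adjustment limma gave 2 higher at p below 0.05, against 10.5% of all genes, and 7 lower, against 11.1%), and Cavin1, a caveolar coat protein abundant in fat and muscle, had the smallest p (difference -1.33 ± 0.35, adjusted p = 0.0752). Of 28 thermogenic and fatty acid oxidation genes, Cpt1a, which admits fatty acids to mitochondria, rose by 0.59 ± 0.11 (limma adjusted p = 0.0301), and its call held in 3 of the 8 fits without an array. With the Adipoq level as a covariate the limma adjusted p of Klf5, Cebpd and Cpt1a was 0.0264, 0.0136 and 0.0220. In that fit, added after seeing the data, 5.32% of all genes passed. With the muscle mean as a covariate the limma adjusted p of these 3 genes was 0.308, 0.424 and 0.247. Of the 539 genes that differed with genotype as the single term, only 54 passed in the fit with the muscle mean. The muscle mean was itself lower in GR-null skin, so the loss of these calls is not particular to these genes.

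The same lists also followed Adipoq to different degrees. An r over 0.7 with Adipoq was found for 8 of the 29 regulators (27.6%), 5 of the 36 lipid genes (13.9%) and 9 of the 28 oxidation genes (32.1%), against 8.64% of all genes. Among them were Mlxipl, a glucose-sensing factor of lipogenesis (r = 0.93), G0s2, an inhibitor of the first lipase (0.91), Scd1, the stearoyl-CoA desaturase (0.91), and Ebf2, a factor of brown preadipocytes (0.89), all named after their values were seen and given with no test. For other cell types the counts were 4 of 10 dermal fibroblast markers, 2 of 10 capillary markers, 2 of 8 macrophage markers, 1 of 12 keratinocyte markers, 1 of 31 muscle markers and 0 of 10 sebaceous gland markers. The median r with Adipoq was 0.54 over the regulators, 0.24 over the lipid genes and 0.44 over the oxidation genes. Over fibroblast markers it was 0.63, above those of these related lists, so following Adipoq was not particular to fat genes. It was 0.44 over macrophage, 0.37 over muscle and 0.04 over capillary markers. Over keratinocyte markers it was -0.60 and over sebaceous gland markers -0.62. Among genes outside the members with a mean above the median of genes, the 10 most like Adipoq had r from 0.96 to 0.98, led by Pros1, the gene of protein S, and including the laminin gene Lamb1 and the macrophage growth factor gene Csf1. Each of the 10 spanned 0.35 to 0.92 log2 over the arrays, beside 7.36 for Adipoq, and they top a ranking of many genes over 8 arrays.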

How the data were processed

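Expression was measured on 8 arrays. The deposited table holds log2 values per probe set that the authors made with RMA (named in the submitters' processing notes). This method corrects background, gives all arrays 1 distribution and combines the probes of a set, which can shrink differences of dim or saturated probe sets. The sources used here name no version or filter, and no detection calls were used. The precision is limited by the number of arrays. Of 45101 probe sets, 64 controls were left out; 34945 carried 1 gene symbol, 932 several and 9160 none. Symbols were updated through RefSeq (GRCm38.p6) for 18032 of 18193 genes.

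Limma 3.58.1 (R 4.3.3; lmFit, eBayes, genotype as the single term, two-sided) was fitted to all 45037 probe sets and read at each gene's brightest one, with Benjamini-Hochberg adjustment over all genes and a threshold of 0.05. The fit was tested on simulated data. Intervals are limma's 95%. Deviations from genotype means were correlated in Python 3.11.15, with exact permutation of arrays within genotypes. Promoters are RefSeq windows cut at the start site.

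The members and lists were chosen with earlier results of these data known. All measured members are named. In each other list up to 4 members past the threshold, or the one with the smallest p, are named. Alternatives were quantile normalization again, dropping probe sets under the median level, limma's trended robust prior, array weights, the mean of a gene's probe sets, leaving out _x_at and _s_at probe sets, muscle or Eif2s3y covariates, a threshold of 0.1 and leaving out each array; the Adipoq covariate, in a fit without Adipoq itself, was added after seeing the data.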

Additional observations from a re-analysis of the deposited data

Results flagged for a closer look

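Within a genotype, 7 of 66 sets of 4 values (33 members in each genotype) had 1 array far from the other 3, by Dixon's criterion at 95%, which chance alone meets in about 1 in 20 sets. Wild-type 4 was the far array in 4 of them: Cidea at 9.20 log2 (next array 7.18), Ucp1 at 5.94 (5.06), Thrsp at 8.97 (7.38) and Plin4 at 7.93 (6.88). GR-null 17 was the far array in 3: Plin4 at 7.05 (6.03), Cidec at 5.81 (4.51) and Pnpla2 at 8.28 (7.68). All 7 were the highest of their group. Over all members wild-type 4 was the highest of its genotype for 20 of 33 and GR-null 17 for 24 of 33. These counts were not made over all genes, so whether they are particular to the members was not tested. The members also varied together across arrays, so the 66 sets are not separate draws.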

How the results depend on the processing

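Of 553 values of single members over 17 other fits, 542 kept their side of the threshold, and the 11 others passed it on the lower side. The number of members higher was 0 in every fit. The number lower was 0 with all arrays, 4 with array quality weights, 2 at an adjusted p below 0.1, 2 with Adipoq as a covariate, and 0 to 4 without 1 array (4 without GR-null 17, 1 without wild-type 4). It was 0 in the remaining fits, among them that with the muscle mean, itself lower on average in GR-null arrays, as a covariate. This fit took the median difference of the members from -0.20 to -0.02. That median lay between -0.27 and -0.12 without 1 array. The number of genes differing was 539, and 1944 with array quality weights, 884 with the mean of all probe sets, 103 with the muscle covariate, 1524 at an adjusted p below 0.1, 968 with Adipoq as a covariate and 79 to 1640 without 1 array (1640 without GR-null 17); the cause was not tested. The sign of the difference turned in at least 1 fit for 15 members, none of them past the threshold there. No paired analysis was possible because the label numbers of the 2 groups share no value. With 4 arrays a group the 95% intervals were widest for Adipoq (-4.31 to 4.20), Car3 (-3.44 to 0.42) and Gpd1 (-2.16 to 0.88).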
